A study of Mus musculus with 6 samples.

Results

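The maturation of the mouse olfactory epithelium between late gestation (embryonic day, E18.5) and the third postnatal week (PND21) was read from 2 of the 6 RNA libraries of a study of repressive histone methyltransferases and olfactory receptor expression. The members are the heterozygous library of each age, chosen by age and genotype label, and 21290 gene symbols that both deposited tables hold. The E18.5 library was labelled a G9a heterozygote and the PND21 library a Suv420H1/Suv420H2 double heterozygote. G9a (gene Ehmt2) and its partner GLP (Ehmt1) methylate lysine 9 of histone H3, and the Suv420h enzymes methylate lysine 20 of histone H4. The other E18.5 libraries were a G9a knockout, a G9a knockout that was also heterozygous for GLP, and a G9a/GLP double knockout, and the other PND21 library was a Suv420H1/Suv420H2 double knockout. Each genotype had 1 library. All mice had a mixed background that was mostly C57/B6, and all RNA was polyadenylated RNA. The sources used here do not give the sex, the number of animals behind a library or the way the alleles were deleted. No wild-type library was used. Age, genotype, sex, table and library therefore cannot be told apart, there is no replicate check, and no test was run.

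The olfactory epithelium lines the back of the nasal cavity and replaces its neurons throughout life. Basal cells divide and give rise to immature neurons, which extend an axon to the olfactory bulb, settle on a single olfactory receptor gene and then grow the cilia in which odorants are detected. Sustentacular cells surround the neurons and metabolise odorants and toxins, and Bowman glands beneath them secrete mucus rich in odorant-binding lipocalins.

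Levels are FPKM (fragments corrected for the length of the transcript and the depth of the library), as the authors deposited them unless called rescaled. In lists of values the order is always the G9a heterozygote, the G9a knockout, the G9a knockout GLP heterozygote and the G9a/GLP double knockout at E18.5, then the Suv420h double heterozygote and double knockout at PND21. For ratios, the PND21 heterozygote was multiplied by 1.02, which sets the median ratio of 9152 genes at 5 FPKM or more in both libraries to 1. A log2 ratio is PND21 minus E18.5 on log2(FPKM + 1), which understates the differences of low genes. A pairing is 1 PND21 library against 1 E18.5 library, of which there are 8. Other genotypes of the same age are not replicates, but they show how far a value moves within an age.

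Markers of the labelled tissue were present in every library: Omp, made in mature olfactory neurons, was at 21.2 FPKM or more, and the sustentacular cytochrome Cyp2g1 was at 24.2 FPKM or more. The targeted genes do not check the labels at the level of whole genes. Ehmt2 was at 24.5, 30.2, 32.5 and 30.4 FPKM at E18.5 and at 21.7 and 20.5 FPKM at PND21, and Ehmt1 was at 17.3, 20.8, 15.8 and 16, then 17.4 and 14.6 FPKM. Suv420h1 was at 25.8, 23.2, 26.3 and 24.9, then 31.0 and 30.6 FPKM, and Suv420h2 was at 16, 17, 15.4 and 16.1, then 7.92 and 7.35 FPKM. Each gene was within 2-fold of the heterozygote of the same age in the libraries labelled as its knockout. Whether the deleted exons were among the bases read was not analysed here. The heterozygous libraries also differed in sex-linked RNA. Xist, the RNA that coats the inactive X chromosome, was at 0.24, 140, 0.27 and 208, then 120 and 112 FPKM. The Y-linked Ddx3y was at 33.6, 0.05, 29.2 and 0, then 0 and 0.19 FPKM. Between the heterozygotes, age and sex therefore cannot be told apart for sex-linked genes. The E18.5 G9a knockout and G9a/GLP double knockout, like both PND21 libraries, had high Xist and little or no Ddx3y.

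Compared were 15194 genes other than olfactory receptors whose level reached 1 FPKM in at least 1 of the heterozygous libraries. Higher at PND21 by 2-fold or more were 1578 genes, 10.4%, and lower by as much were 2201 genes, 14.5%. The other 11415 genes, 75.1%, lay within 2-fold, and the median log2 ratio was -0.09. When the 2 libraries were scaled to equal sums without receptors and globins, the median was -0.54 and the counts were 823 higher and 3987 lower, so the share of higher against lower genes depends on the scale. In every pairing of the 6 libraries a difference of 2-fold was met by 1119 genes in the higher direction, 7.36%, and 1434 genes in the lower direction, 9.44%. At least 16-fold differences were found for 83 higher and 109 lower genes. The 10 most abundant genes held 5.12% of the summed FPKM at E18.5 and 27.7% at PND21.

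Genes with a near copy, whose reads cannot be assigned with certainty, were 2-fold higher more often, and the part of read assignment in this was not tested. A near copy is another gene with a transcript at least 95% identical to the coding sequence over at least 50% of its length. The copy need not be a coding gene, and the nearest copy of Dynlt1c is Dynlt1-ps1, named as a pseudogene. Among 1092 genes with a near copy 29.3% were higher by 2-fold or more and 9.34% lower. For the 13545 genes with none the shares were 8.46% and 15%. Clone names such as Rik, Gm and LOC symbols were left out when genes were ranked outside the lists. The 15 highest ratios then included Rps29 and Rps12, 2 ribosomal protein genes, Dynlt1c and Hist2h2aa1, all with near copies. Rps12 was at 0.60, 0.71, 242 and 0.19 FPKM at E18.5, then 110 and 72.2 FPKM, so it was high in 1 of the 4 E18.5 libraries and near 0 in the other 3. Genes with near copies are named as such below, and their values are uncertain.

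**Figure D1:**
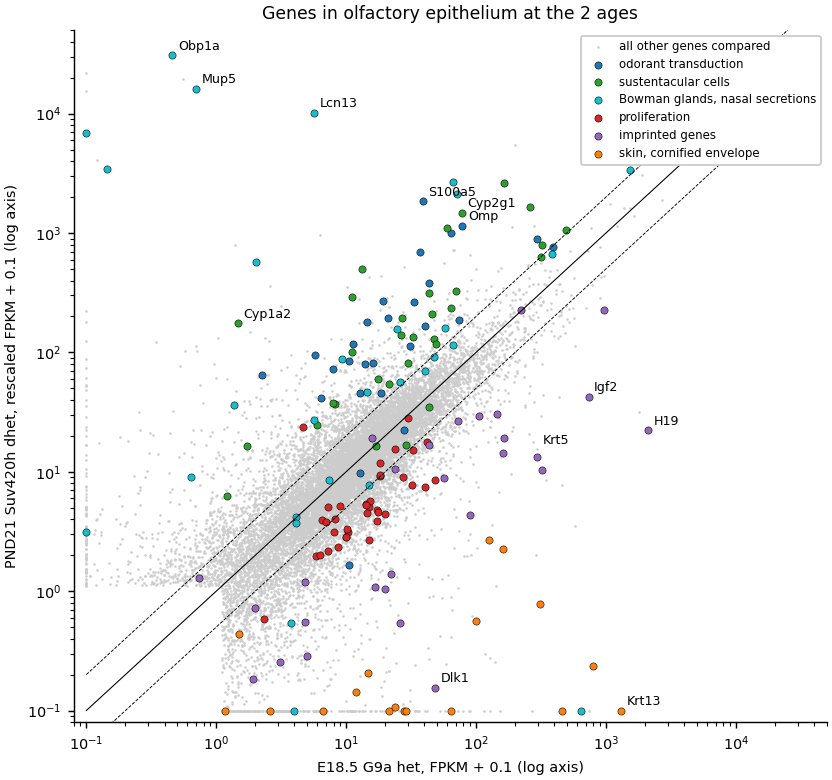
FPKM of each compared gene in the E18.5 G9a heterozygote (horizontal) and the PND21 Suv420h double heterozygote (vertical, rescaled), both plus 0.1 on log axes, with members of named lists in colour. Most of the 15194 genes lie near the diagonal, transduction, sustentacular and secretion genes lie mainly above it, and skin genes lie below it.

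**Figure D2:**
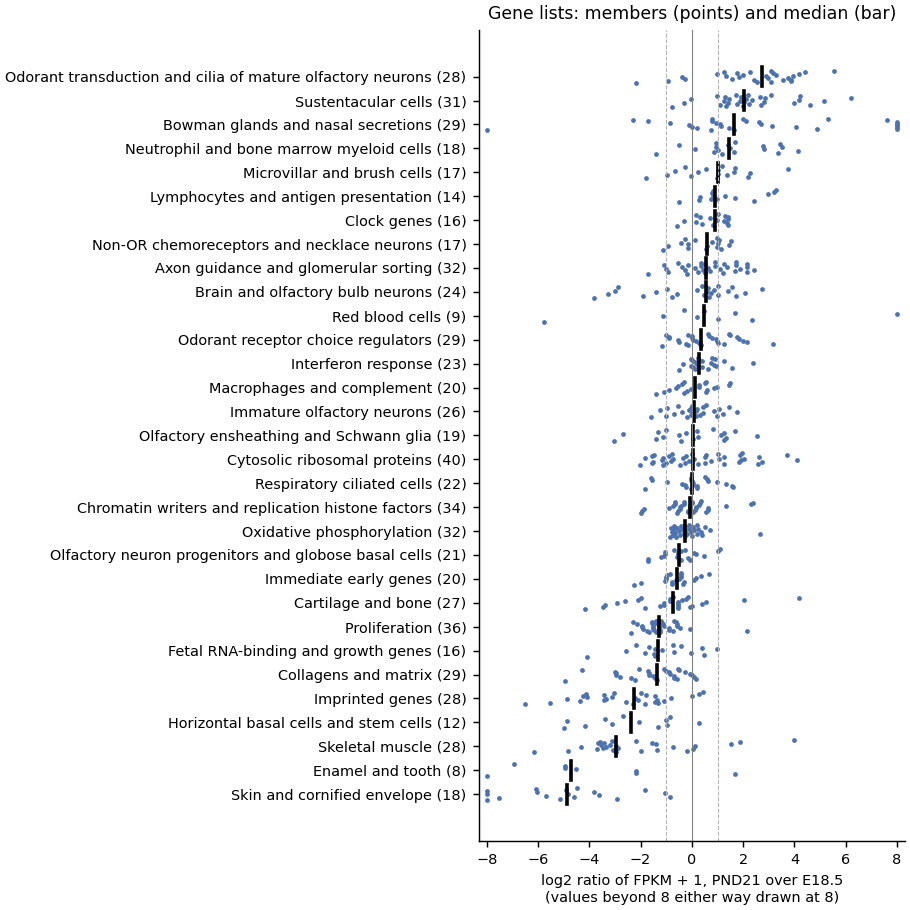
Log2 ratios of FPKM + 1, PND21 over E18.5, of the members (points) of 31 gene lists with their median (bar); the number compared stands beside each name, dashed lines mark 2-fold and values beyond 8 are drawn at 8. The highest median, 2.72, is that of odorant transduction and the lowest, -4.87, that of skin.

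Odorant transduction genes of mature neurons were the list with the highest median. Of 28 members compared, 23 were at least 2-fold higher at PND21 and 1 lower, with a median log2 ratio of 2.72, beside 10.4%, 14.5% and -0.09 over all genes. In every pairing 22 of the 28 were at least 2-fold higher. The promoters of 3 of its genes are shown because their members differ most among those holding a binding-type motif of the Ebf factors, which are known regulators of olfactory neuron genes. The sequences run from 250 bases before to 50 bases after the start site (RefSeq, GRCm38.p6), 5′ to 3′, and capitals mark CCCNNGGGA or its reverse complement TCCCNNGGG. They are Gng13, chr17:25716922-25717221, plus strand; Cnga2, chrX:71991599-71991898, plus strand; and Umodl1, chr17:30954433-30954732, plus strand.
Gng13: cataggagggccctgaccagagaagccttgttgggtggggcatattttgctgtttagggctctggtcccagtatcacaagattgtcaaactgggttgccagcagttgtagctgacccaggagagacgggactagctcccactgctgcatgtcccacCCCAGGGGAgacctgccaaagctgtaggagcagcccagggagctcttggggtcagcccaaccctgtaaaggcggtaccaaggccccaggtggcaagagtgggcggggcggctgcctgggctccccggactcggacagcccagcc
Cnga2: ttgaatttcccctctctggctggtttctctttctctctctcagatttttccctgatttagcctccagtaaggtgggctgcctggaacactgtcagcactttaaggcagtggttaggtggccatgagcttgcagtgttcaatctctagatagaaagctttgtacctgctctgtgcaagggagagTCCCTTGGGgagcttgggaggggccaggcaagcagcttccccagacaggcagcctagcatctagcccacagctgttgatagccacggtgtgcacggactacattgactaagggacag
Umodl1: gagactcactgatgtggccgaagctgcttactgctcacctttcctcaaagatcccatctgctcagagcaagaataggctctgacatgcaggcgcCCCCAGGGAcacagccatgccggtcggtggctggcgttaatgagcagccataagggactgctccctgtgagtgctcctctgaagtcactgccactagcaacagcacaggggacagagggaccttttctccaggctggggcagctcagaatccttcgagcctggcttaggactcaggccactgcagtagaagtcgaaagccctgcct
Of 23 members whose promoter is tabulated, 8 held this motif on either strand, 34.8%, beside 7.48% of 27025 symbols. In lists described below it was held by 18.2% of 22 imprinted, 9.68% of 31 proliferation and 8.70% of 23 sustentacular genes. A gene counts as holding a motif, here and below, when any of its tabulated start sites does. The 23 members had 33 start sites, the 22 imprinted genes 42 and the 27025 symbols 32851. A match is a description of letters and not of binding.

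Omp, olfactory marker protein (mm9 chr7:105270075-105326703), was at 78.6, 36.0, 21.2 and 24.0 FPKM at E18.5 and at 1124 and 1108 FPKM at PND21. Both PND21 libraries lay far above all 4 E18.5 libraries, and the heterozygotes differed 14.6-fold. Gng13, the G protein gamma subunit of the cilia, was at 64.0, 40.7, 20.7 and 40.4, then 985 and 959 FPKM. Its groups did not overlap either, with a log2 ratio of 3.96. Cnga2, the subunit of the cation channel that opens on cyclic AMP (mm9 chrX:69237214-69255557), was at 19, 11.4, 6.01 and 8.34, then 261 and 279 FPKM. The heterozygotes were 3.75 apart on the log2 scale, and the E18.5 G9a heterozygote was the highest of its age for these 3 genes.

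The steps between receptor and channel showed the same order of ages. Gnal, the olfactory G protein alpha subunit, was at 43.5, 18.3, 12.2 and 13.7, then 373 and 387 FPKM. Adcy3, the adenylyl cyclase, was at 21.1, 14.9, 11.6 and 14.6, then 190 and 189 FPKM. Their log2 ratios were 3.10 and 3.15, with no overlap of the ages. S100a5, a calcium-binding protein of mature neurons, had the highest ratio of the list, 5.53, at 39.1, 19.8, 13.2 and 24.2, then 1805 and 2213 FPKM. Rtp1 and Rtp2, which carry receptors to the cell surface, had log2 ratios of 2.0 and 1.85. The 1 member at least 2-fold lower was Rgs4, a regulator of G protein signalling, at 10.5, 4.81, 2.12 and 5.51, then 1.52 and 0.78 FPKM. In bulk tissue more cells of a type and more RNA per cell cannot be told apart, here and for every list below.

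**Figure D3:**
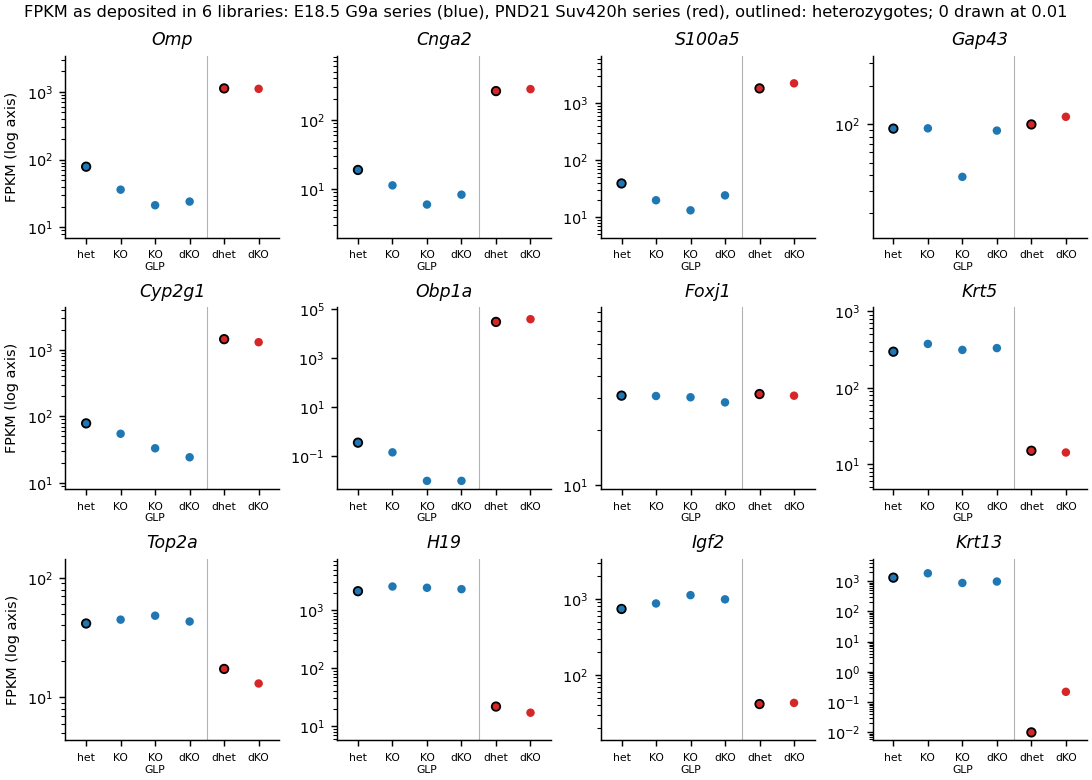
FPKM as deposited, on log axes, of 12 genes in the 4 E18.5 libraries (blue) and 2 PND21 libraries (red), with heterozygotes outlined and 0 drawn at 0.01. Omp, Cnga2, S100a5, Cyp2g1 and Obp1a are higher in both PND21 libraries, Krt5, Top2a, H19, Igf2 and Krt13 are lower, and Foxj1 stays between 28.5 and 31.6 FPKM.

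Sustentacular genes were higher as a group. Of 31 members 27 were at least 2-fold higher, all 27 in every pairing, and none was at least 2-fold lower, with a median log2 ratio of 2.05. Cyp2g1, a cytochrome P450 made in olfactory mucosa (mm9 chr7:27593946-27606216), was at 78.3, 54.6, 33.0 and 24.2, then 1450 and 1305 FPKM. The ages did not overlap and the heterozygotes were 4.23 apart on the log2 scale. Ugt2a1, which conjugates odorants with glucuronic acid, was at 260, 178, 153 and 130, then 1603 and 1587 FPKM. Sec14l3, a lipid-binding protein, was at 59.5, 42.7, 32.2 and 31.5, then 1084 and 1179 FPKM. The log2 ratios of these genes were 2.65 and 4.2, with no overlap of the ages. Cyp1a2, another cytochrome, had the highest ratio, 6.21, at 1.37, 1.41, 1.03 and 0.13, then 171 and 140 FPKM. Cyp2a5 was at 163 and 2567 FPKM in the heterozygotes and Cyp2a4 at 13.2 and 491 FPKM, but they are near copies of each other and their split is uncertain. Notch2, a receptor of cell contacts, had the lowest ratio, -0.76.

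Secreted proteins of Bowman and other nasal glands held the highest single values of the tissue. Of 29 members compared 18 were at least 2-fold higher and 3 lower, with a median log2 ratio of 1.63. Obp1a, an odorant-binding lipocalin (mm9 chrX:75330844-75336713), was at 0.36, 0.15, 0 and 0 FPKM at E18.5 and at 30146.5 and 38936 FPKM at PND21. Mup5, a major urinary protein of the same family, was at 0.60, 0.13, 0 and 0.21, then 15860 and 28705 FPKM. With clone names left out, these were the highest and second highest log2 ratios of the genes ranked, 14.47 and 13.31. Mup4 was listed at 0 in all 4 E18.5 libraries and was at 6727 and 8278 FPKM at PND21. Lcn13 was at 5.55 FPKM in the G9a heterozygote, listed at 0 in the other 3 E18.5 libraries, and at 9958 and 12480 FPKM at PND21. Lcn14 was at 0.04 FPKM in the G9a heterozygote and at 3345 and 3999 FPKM at PND21. All of these lipocalins were separated by age with no overlap.

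Some secreted proteins were already present before birth. Lcn11 was at 71.9, 10.9, 0.59 and 0.22, then 2078 and 2839 FPKM, so it varied widely among the E18.5 libraries and was highest in the G9a heterozygote. Plunc, a protein of nasal fluid, was at 1531 FPKM in the E18.5 heterozygote and 3275 FPKM in the PND21 heterozygote. Lcn3 and Lcn4, lipocalins of vomeronasal and nasal glands, did not follow age alone. Lcn3 was at 4.04, 1.78, 0.95 and 0.22, then 3.96 and 243 FPKM, and Lcn4 was at 2.96 and 151 FPKM in the PND21 libraries. For both genes the PND21 heterozygote lay far below the PND21 double knockout. The clone gene 5430413K10Rik, which has a near copy, had the lowest ratio of the list and was at 643, 100, 84.6 and 82.9 FPKM, then listed at 0 in both PND21 libraries. The summed FPKM of the list was 3034 in the G9a heterozygote and 76054 in the Suv420h double heterozygote.

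Microvillar and brush cell genes were less uniform, with 9 of 17 members at least 2-fold higher, 6 of these in every pairing. Lower was 1 member, and the median log2 ratio was 1.0. Ascl3, a transcription factor of microvillar and gland precursor cells, was at 9.16, 5.65, 1.35 and 3.49, then 30.2 and 38.1 FPKM. Coch, an extracellular matrix protein, was at 25.3, 8.42, 8.93 and 6.6, then 117 and 129 FPKM. The ages did not overlap for either gene. Moxd2, a monooxygenase-like protein, was listed at 0 in the 4 E18.5 libraries and was at 12.1 and 16.4 FPKM at PND21. Trpm5, the cation channel of brush cells, was at 2.12, 2.96, 4.04 and 4.0, then 1.57 and 1.15 FPKM, with a log2 ratio of only -0.26 between heterozygotes. Avil, which binds actin in microvilli and is also made in sensory neurons, was at 7.64 FPKM in the G9a heterozygote and 1.43 FPKM in the PND21 heterozygote, but at 0.84 and 0.75 FPKM in 2 other E18.5 libraries.

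Genes of immature neurons were nearly level. Of 26 members 19 lay within 2-fold, 4 were at least 2-fold higher and 3 lower, with a median log2 ratio of 0.08. Gap43, the growth cone protein, was at 92.3, 92.8, 38.6 and 89.1, then 99.6 and 114 FPKM. Gng8, the G protein gamma subunit of immature neurons, was at 20.3, 19.3, 17.7 and 20.3, then 22.7 and 19.7 FPKM. The log2 ratios were 0.14 and 0.19, and both PND21 libraries of Gng8 lay close to the E18.5 range. Atf5, a stress-response factor that marks receptor-expressing neurons, had the highest ratio, 1.74, at 84.0, 82.5, 80.2 and 121, then 277 and 298 FPKM. Marcks, a membrane protein of growing processes, had the lowest, -1.60, at 275, 312, 304 and 296, then 87.7 and 77.7 FPKM.

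Progenitor genes were split. Of 21 members 6 were at least 2-fold lower, 2 higher and 13 within 2-fold, with a median log2 ratio of -0.50. Neurog1, a factor of neuronal precursors, was at 3.22 and 2.42 FPKM in the heterozygotes, and Neurod1, a factor that acts after it, was at 8.39 and 11.7 FPKM. Both overlapped with values of the other age over all libraries. Sox4, a factor of early neurons, had the lowest ratio, -1.72, at 22.1, 26.3, 15.8 and 18.7, then 5.87 and 4.65 FPKM. Pax6 had the highest, 1.08, at 9.26, 9.58, 4.98 and 7.49, then 20.2 and 20.3 FPKM.

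Genes of horizontal basal cells, the resting stem cells that lie on the basal lamina, were lower. Of 12 members 9 were at least 2-fold lower, all 9 in every pairing, and none was 2-fold higher, with a median log2 ratio of -2.38. Krt5, their defining keratin (mm9 chr15:101537501-101543322), was at 297, 376, 314 and 331, then 15 and 14.3 FPKM. The ages did not overlap and the ratio was -4.19 on the log2 scale. Trp63, the factor that keeps these cells at rest, was at 35.7, 35.0, 32.1 and 27.8, then 4.61 and 6.5 FPKM. Krt14, Krt15 and Sprr1a had log2 ratios of -3.12, -4.89 and -5.00. Skin and other stratified epithelia make the same keratins, and skin genes moved with them. The 21 members of the skin and cornified envelope list that both tables hold summed to 3462, 5021, 4277 and 5759 FPKM at E18.5. At PND21 they summed to 7.06 and 12.4 FPKM. The part of skin or other stratified epithelium in the basal cell result was not tested.

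Proliferation genes were lower at PND21. Of 36 members 26 were at least 2-fold lower, all 26 in every pairing, and 1 was higher, with a median log2 ratio of -1.29. That 1 gene, Hmgb2, has near copies. Without near copies 24 of 29 were lower and none was higher, with a median of -1.41. The promoters of the 3 members with the lowest ratios among those holding TTTGAA, or its reverse complement TTCAAA, are shown because this is the letter sequence of the cell cycle homology region of mitotic genes. Layout, source and build are as above and capitals mark the motif. They are Ube2c, chr2:164769679-164769978, plus strand; Cdk1, chr10:69352863-69353162, minus strand; and Ccnb2, chr9:70421505-70421804, minus strand.
Ube2c: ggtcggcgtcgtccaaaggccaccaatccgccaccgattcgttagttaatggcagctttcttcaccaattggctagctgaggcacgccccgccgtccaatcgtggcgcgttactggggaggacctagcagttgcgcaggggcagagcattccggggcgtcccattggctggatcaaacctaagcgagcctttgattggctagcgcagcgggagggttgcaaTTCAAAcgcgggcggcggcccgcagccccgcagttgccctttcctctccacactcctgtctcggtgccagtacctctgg
Cdk1: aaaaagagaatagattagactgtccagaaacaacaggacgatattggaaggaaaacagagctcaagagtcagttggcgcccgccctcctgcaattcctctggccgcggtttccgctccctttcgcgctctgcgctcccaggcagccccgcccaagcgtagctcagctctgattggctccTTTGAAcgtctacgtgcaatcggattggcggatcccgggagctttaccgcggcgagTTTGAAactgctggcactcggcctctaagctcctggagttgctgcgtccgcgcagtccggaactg
Ccnb2: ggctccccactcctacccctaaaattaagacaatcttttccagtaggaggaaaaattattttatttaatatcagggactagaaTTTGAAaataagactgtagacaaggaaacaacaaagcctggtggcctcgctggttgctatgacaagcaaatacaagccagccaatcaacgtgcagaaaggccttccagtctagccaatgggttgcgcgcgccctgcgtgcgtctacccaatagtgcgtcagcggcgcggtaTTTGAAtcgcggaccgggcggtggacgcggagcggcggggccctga
The motif was present in 15 of 31 members with a promoter in the table, 48.4%, beside 20.2% of all 27025 symbols. It was also present in 37.3% of 923 olfactory receptor genes and 31.8% of 22 imprinted genes. In the transduction and sustentacular lists the shares were 21.7% and 13.0%. The E2F type motif TTTCCCGC, or GCGGGAAA, was present in 3 of the 31, 9.68%, beside 1.24% of all.

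Ube2c, the ubiquitin-conjugating enzyme of the anaphase-promoting complex, had the lowest ratio of the list, -2.39, at 48.3, 52.1, 41.8 and 56.0, then 8.22 and 5.97 FPKM. Birc5, a chromosomal passenger protein, was at 40.4, 46.8, 46.1 and 43.8, then 7.15 and 5.37 FPKM. Top2a, the topoisomerase of dividing cells, was at 41.5, 44.7, 48.2 and 43.1, then 17.2 and 13.0 FPKM. Mki67, the common marker of cycling cells, was at 32.9, 38.4, 38.9 and 35.9, then 14.7 and 12.2 FPKM. No E18.5 library overlapped a PND21 library for any of these 4 genes. Dividing cells of other tissues in the sample count here too, and their part was not tested.

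Olfactory receptor genes (Olfr) were the largest family compared. Each mature neuron transcribes mainly 1 of them, so their summed level per library follows both the number of neurons and the RNA per neuron. For this family the ratio is on log2(FPKM + 0.1), and detection means 0.5 FPKM or more on the rescaled level. Both tables list 1116 receptors, of which 427 were detected in the E18.5 heterozygote and 822 in the PND21 heterozygote. The other E18.5 libraries had 152, 166 and 89, and the PND21 double knockout had 843. Among 879 receptors detected in either heterozygote, 600 were at least 2-fold higher at PND21, 68.3%, and 54 lower, 6.14%, with a median log2 ratio of 1.77. Both ages shared 370 of them, 452 were detected at PND21 alone and 57 at E18.5 alone. The shared 370 were 86.7% of those detected at E18.5 and 45.0% of those detected at PND21.

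Summed receptor FPKM, rescaled, was 631, 305, 271 and 441 at E18.5 and 2405 and 2895 at PND21. The heterozygotes differed 3.81-fold, and the 8 pairings ranged from 3.81-fold to 10.7-fold. The receptor sum differed less than the neuron markers did. The geometric mean of the transduction list differed 5.27-fold, so the receptor ratio divided by it was 0.72, and Omp differed 14.6-fold. The receptor sum per unit of Omp was 8.03 in the E18.5 heterozygote and 2.09 in the PND21 heterozygote, and it was 8.62, 12.8 and 18.4 in the other E18.5 libraries and 2.49 in the PND21 double knockout, with no overlap of the ages.

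The most abundant receptor at PND21 was Olfr536 (mm9 chr7:147686752-147693217), at 2.91, 0.48, 0.47 and 0.17 FPKM at E18.5 and 38.3 and 45.9 FPKM at PND21. Olfr1507 (mm9 chr14:53109610-53115370), also known as MOR28, was at 0.44, 0.18, 0.31 and 0.14, then 20.9 and 29.4 FPKM. The log2 ratios were 3.71 and 5.30, and the ages did not overlap for either. Olfr727 and Olfr1226 were at 22.8 and 19 FPKM in the PND21 heterozygote and at 0.87 and 0.27 FPKM in the E18.5 heterozygote. The most abundant receptor at E18.5 was Olfr15, at 5.38, 4.06, 5.90 and 0.18, then 14.2 and 18.9 FPKM. Of the 8 most abundant receptors at each age, the pseudogene Olfr1372-ps1 alone was shared, at 4.95 and 23.7 FPKM in the heterozygotes.

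The highest ratios belonged to receptors listed at 0 in the E18.5 heterozygote. Olfr1228 (mm9 chr2:89088878-89089849) was listed at 0 in all 4 E18.5 libraries and was at 11.6 and 17.6 FPKM at PND21. Olfr1241 was likewise listed at 0 and then at 6.55 and 8.27 FPKM. Over the family 42 receptors were listed at 0 in all 4 E18.5 libraries and were at 0.5 FPKM or more, rescaled, in both PND21 libraries. The opposite direction was rarer and rested on low values. Olfr513 was at 2.97, 3.52, 5.10 and 5.38 FPKM, then listed at 0 and at 1.72 FPKM, so all 4 E18.5 libraries lay above both PND21 libraries. Olfr543 was at 2.64 FPKM in the G9a heterozygote and listed at 0 in the PND21 heterozygote, but was at 0.43, 0 and 0.62 FPKM in the other E18.5 libraries. Olfr642 and Olfr644 were lower in the PND21 heterozygote, at 0.27 and 0.99 FPKM, and both were at 3.13 FPKM in the PND21 double knockout. Olfr644 was at 4.01 FPKM in the G9a heterozygote and Olfr642 at 2.22 FPKM.

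**Figure D4:**
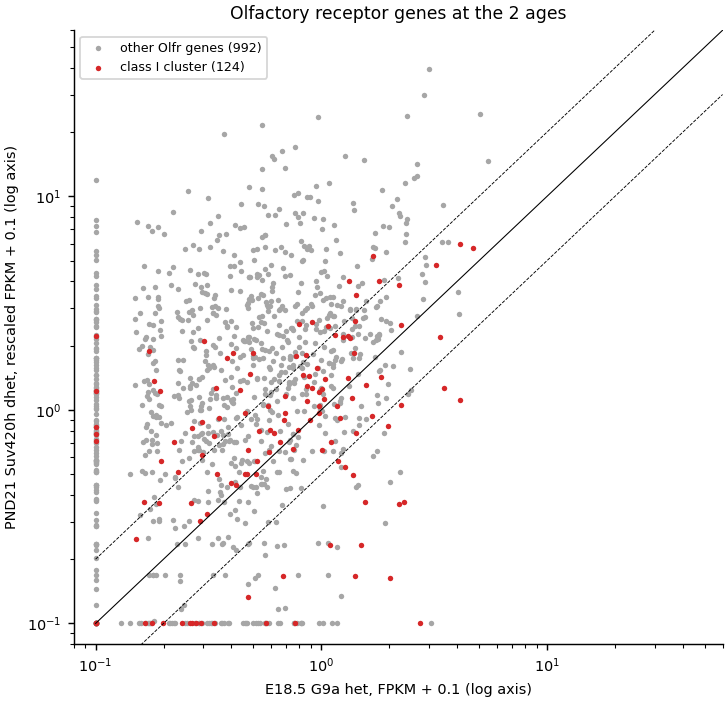
FPKM + 0.1 of the receptor genes in the E18.5 G9a heterozygote (horizontal) and the PND21 Suv420h double heterozygote (vertical, rescaled), on log axes, with class I receptors in a colour of their own. Most other receptors lie above the diagonal, while class I receptors spread around it more closely, with a median log2 ratio of 0.47.

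The class I receptors, the family resembling those of fish, lie in 1 cluster on chromosome 7, taken here as Olfr543 to Olfr692 (mm9 chr7:109625287-112517831). Of 95 class I receptors compared 31 were at least 2-fold higher and 17 lower, with a median log2 ratio of 0.47. Of the 784 other receptors 569 were higher and 37 lower, with a median of 1.95. The class I sum was 106 and 134 FPKM, rescaled, in the heterozygotes, 1.26-fold, and the sum of the others differed 4.33-fold. Class I receptors made up 16.8%, 12.2%, 13.8% and 4.90% of the receptor sum at E18.5 and 5.55% and 6.20% at PND21, so the G9a/GLP double knockout lay below the PND21 libraries and the other 3 above them. Against the other E18.5 libraries the class I median was higher, from 2.63 to 3.84, but it stayed below that of the other receptors in all 8 pairings. Without near copies the medians were 0.40 for 71 class I receptors and 1.73 for 551 others.

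**Figure D5:**
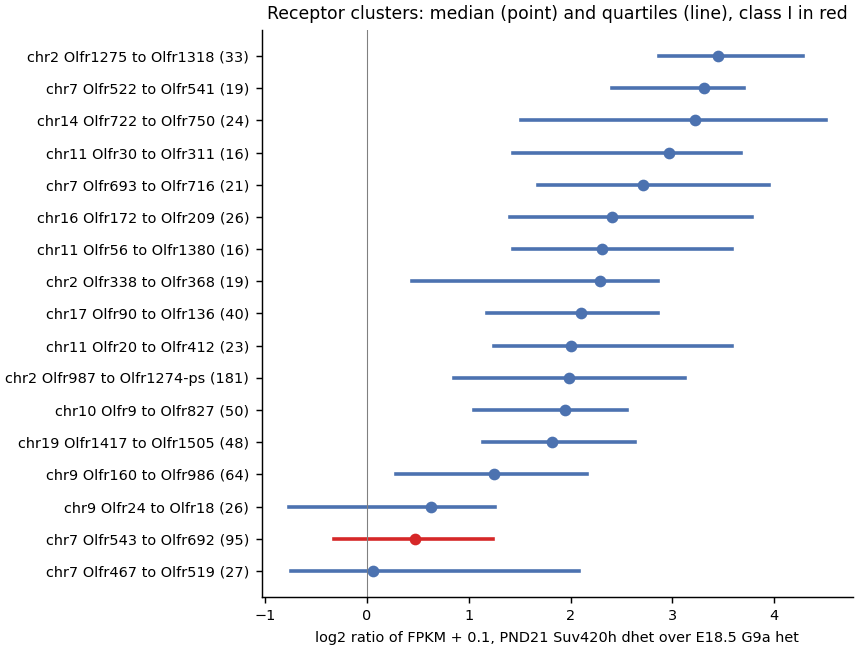
Median (point) and quartiles (line) of the log2 ratio of FPKM + 0.1, PND21 over E18.5, in 17 receptor clusters with at least 15 receptors compared, class I in red; numbers in brackets are receptors compared. Medians run from 0.05 to 3.44.

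The 17 clusters with at least 15 receptors compared had medians above 0, and 3 lay below 1. The lowest was the class II cluster Olfr467 to Olfr519 on chromosome 7, with 27 of its 42 receptors compared, at 0.05. Class I followed, and then Olfr24 to Olfr18 on chromosome 9, with 26 of its 36 receptors compared, at 0.62. The highest were Olfr1275 to Olfr1318 on chromosome 2 at 3.44, Olfr522 to Olfr541 on chromosome 7 at 3.31 and Olfr722 to Olfr750 on chromosome 14 at 3.22. Clusters on the same chromosome thus lay at both ends of the order. The homeodomain motif TAATTA was present in 18.7% of 923 receptor genes with a promoter in the table, beside 6.12% of all symbols. The Ebf type motif was present in 2.60% of these receptor genes. TAATTA was also present in 17.4% of 23 sustentacular genes, near the receptor share. It was present in 4.35% of 23 transduction, 4.55% of 22 imprinted and 0% of 31 proliferation genes. Receptors of a cluster share sequence, and values of single low receptors rest on few fragments.

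Regulators of receptor choice were mostly within 2-fold. Their ratios are on log2(FPKM + 1), unlike those of the receptors, so the sizes are not compared. Of 29 members 9 were at least 2-fold higher, 2 lower and 18 within 2-fold, with a median log2 ratio of 0.35. Lhx2, the homeodomain factor required for most receptor genes, was at 56.1, 50.2, 45.7 and 49.5, then 88.1 and 86.1 FPKM. Its cofactor Ldb1 was at 65.7, 79.7, 75.1 and 82.7, then 54.5 and 59.2 FPKM. Both had ages that did not overlap, in opposite directions, though within 2-fold between heterozygotes. Ebf2 was at 38.8, 22.3, 24.5 and 26.9, then 92.8 and 102 FPKM, with a log2 ratio of 1.27. The methyltransferase genes named above were near the median of all genes, except Suv420h2 at -0.90.

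Axon guidance genes, which sort receptor axons in the bulb, had 12 of 32 members at least 2-fold higher and 3 lower, with a median log2 ratio of 0.57. Kirrel2, an adhesion protein whose level follows neuronal activity, had the highest, 2.44, at 14.0, 3.39, 2.61 and 8.56, then 78.3 and 119 FPKM. Sema7a was at 10.9, 9.68, 7.78 and 6.83, then 50.6 and 44.9 FPKM, and Cntn4 was at 32.7, 14.6, 13.4 and 19.1, then 145 and 163 FPKM. The ages did not overlap for these 3 genes. Nrp1, a semaphorin receptor, was at 24.1 and 20.3 FPKM in the heterozygotes and Nrp2 at 47.4 and 67.0 FPKM. Chl1, an adhesion protein of growing axons, had the lowest ratio, -1.73, at 8.95, 12.2, 3.60 and 5.80, then 1.96 and 1.72 FPKM. Of 17 compared chemoreceptor genes other than Olfr 5 were higher by 2-fold or more and 1 was lower, and the trace amine receptor Taar6 had the highest, 1.53, from 0.35 to 2.84 FPKM.

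Imprinted genes, which are transcribed from 1 parental copy and of which many act on fetal growth, were lower with few exceptions. Of 28 members 24 were at least 2-fold lower, 23 of these in every pairing, and none was 2-fold higher, with a median log2 ratio of -2.26. H19, a noncoding RNA of fetal tissues (mm9 chr7:149761437-149764051), was at 2120, 2553, 2428 and 2298 FPKM at E18.5 and at 21.6 and 16.9 FPKM at PND21. Its neighbour Igf2, the fetal growth factor, was at 736, 869, 1118 and 984, then 41.3 and 42.8 FPKM. Their ages did not overlap, and the ratios were -6.52 and -4.09 on the log2 scale. Cdkn1c, an inhibitor of the cell cycle, was at 324, 417, 651 and 568, then 9.97 and 10.1 FPKM. Dlk1, a Notch-related ligand, was at 48.2, 56.7, 123 and 114, then 0.05 FPKM and listed at 0. Gnas, a G protein alpha subunit gene, was at 969 FPKM and 221 FPKM in the heterozygotes. The highest ratio was 0.42, of Phlda2, at 0.64 and 1.17 FPKM, which is near the lowest level compared.

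Genes of fetal RNA binding and growth had 9 of 16 members at least 2-fold lower and none higher, with a median log2 ratio of -1.31, and share Igf2 with the imprinted list. Igf2bp2, which binds Igf2 RNA, was at 26.1, 34.8, 32.1 and 33.3, then 8.82 and 8.70 FPKM. Igf1 was at 42.0, 40.3, 53.5 and 53.4, then 6.11 and 5.4 FPKM. Igf1r, the receptor of both growth factors, was at 31.7, 25.2, 32.1 and 26.1, then 30.2 and 28.9 FPKM, so the ages overlapped for the receptor and not for Igf1. Chromatin writers and histone factors were nearly level, with 28 of 34 within 2-fold, 3 higher, 3 lower and a median of -0.08. The 3 higher members, H2afz, Hmgb1 and Hdac1, have near copies. Uhrf1, the partner of the maintenance methylase in dividing cells, was at 17.2, 20.9, 21.4 and 21.4, then 3.69 and 2.20 FPKM, but it has a near copy and its value is uncertain. Dnmt1, that methylase, was at 23.7 and 15 FPKM in the heterozygotes and Dnmt3a, a methylase of new sites, at 28.4 and 35.6 FPKM.

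Markers of tissues outside the epithelium also differed with age, so they stand beside every lower list. In the skin list 17 of 18 members were at least 2-fold lower and none higher, with a median log2 ratio of -4.87. Krt13, a keratin of wet stratified epithelium (mm9 chr11:99978910-99982809), was at 1307, 1819, 871 and 972, then listed at 0 and at 0.22 FPKM. Krt1, a keratin of dry skin, was at 311, 589, 746 and 1113, then 0.66 and 0.25 FPKM. Krtdap was at 458 FPKM in the E18.5 heterozygote and listed at 0 in both PND21 libraries. Enamel genes were at least 2-fold lower in 7 of 8 members, none of them in every pairing. Amelx, the main enamel protein, was at 737, 388, 14.6 and 3.45, then 0 and 19.7 FPKM. Its level varied widely within E18.5, and the PND21 double knockout lay within the E18.5 range. The enamel list summed to 1004, 509, 41.3 and 13.0 FPKM at E18.5 and to 103 and 101 FPKM at PND21, where Odam, the 1 higher member, alone was at 103 and 73.5 FPKM.

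Muscle, cartilage and matrix genes differed as well. Of 28 muscle genes 21 were at least 2-fold lower and 3 higher, with a median log2 ratio of -2.96, and the list summed to 2189, 1842, 3092 and 2745 FPKM, then 253 and 25.2 FPKM. Acta1, skeletal actin, was at 407, 273, 591 and 537, then 19 and 1.68 FPKM, while Mb, myoglobin, was at 1.53, 2.91, 2.17 and 3.26, then 38.5 and 2.31 FPKM. The PND21 double knockout lay within the E18.5 range of Mb, and of the muscle genes 20 were at least 2-fold lower in every pairing and none was higher in every pairing. Of 29 collagen and matrix genes 17 were lower and none higher, with a median of -1.37, and Fbn2, a fibrillin of developing matrix, had the lowest, -4.97, at 54.5, 45.2, 74.3 and 58.1, then 0.76 and 0.58 FPKM. Col1a1, the main bone and skin collagen, was at 2710, 3146, 2973 and 2685, then 1858 and 660 FPKM. The matrix list summed to 9250, 9767, 11063 and 9620, then 6193 and 2694 FPKM. Of 27 cartilage and bone genes 11 were lower and 2 higher. Col2a1, the cartilage collagen, was at 73.9 and 3.05 FPKM in the heterozygotes. The 2 higher genes of this list, Bglap and Bglap2, are near copies. The list summed to 3142, 2969, 2736 and 2329, then 3530 and 1137 FPKM, so the PND21 libraries differed widely. The part of these tissues in the imprinted, growth and proliferation results was not tested.

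Glial, ciliated and brain genes did not move one way. Among 19 genes of ensheathing and Schwann glia 6 were 2-fold or more higher and as many lower, from Gfap at 1.04 and 10.5 FPKM to Ngfr at 12.6 and 0.66 FPKM. Ciliated respiratory genes were level, with 16 of 22 within 2-fold and a median of 0.02, and Foxj1, the master factor of motile cilia, was at 31.0, 30.9, 30.4 and 28.5, then 31.6 and 31.0 FPKM. Among 24 brain and bulb genes 7 were higher and 6 lower. Neurod6, a factor of forebrain neurons, was at 7.48, 24.3, 0 and 3.51, then 0.13 FPKM and listed at 0, so it varied within E18.5 from the highest of the 6 libraries to 0. Snap25, a synaptic protein that olfactory neurons also make, was at 36.0, 31.6, 12.2 and 29.7, then 153 and 137 FPKM.

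The immune lists did not all differ alike. Higher by 2-fold or more were 12 of 18 neutrophil and marrow genes and lower was 1, with a median log2 ratio of 1.45, but 5 were higher in every pairing. S100a8 was at 25.1, 24.4, 48.1 and 45.9, then 176 and 89.3 FPKM. Of 14 lymphocyte and antigen presentation genes 6 were higher and none lower, and Cd74, the chaperone of MHC class II, was at 3.98, 4.18, 1.4 and 2.63, then 46.8 and 31.4 FPKM. Macrophage genes were level, with 2 of 20 higher, 2 lower and a median of 0.12, and Csf1r was at 19.4 and 12.6 FPKM. Interferon response genes had 3 of 23 higher, 13.0%, near the 10.4% of all genes, and none lower. Of 9 red cell genes compared 4 were higher and 2 lower, but the alpha globin genes, Hba-a1 with its near copy Hba-a2, share reads, and Hba-a1 was at 0.02, 4218, 382 and 645, then 3970 and 2045 FPKM, so its split from Hba-a2 is uncertain.

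Of the lists of general cell functions, oxidative phosphorylation had the largest share of members within 2-fold. Of 32 oxidative phosphorylation genes 31 lay within 2-fold, with a median log2 ratio of -0.28, and the 1 higher gene, Cycs, has near copies. Of 40 cytosolic ribosomal protein genes 38 have near copies, 14 were 2-fold or more higher, 10 were lower and 16 lay within 2-fold, and Rpl8, 1 of the 2 without, was at 517, 610, 589 and 595, then 227 and 206 FPKM. Clock genes were not level and had 7 of 16 higher and none lower, with a median of 0.89; Hlf, an output factor, was at 9.39, 8.35, 7.11 and 7.98, then 24.1 and 24.1 FPKM. Arntl, a core clock factor, was at 7.73 and 5.92 FPKM, and the sources used here do not give the time of day of sampling. Immediate early genes had 4 of 20 lower and none higher, and Fos was at 14.9, 48.0, 6.38 and 8.42, then 6.68 and 5.46 FPKM, so the spread within E18.5 was wider than the gap between the ages.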

How the data were processed

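Polyadenylated RNA from olfactory epithelium was sequenced in 6 libraries, 4 at E18.5 and 2 at PND21, made with the ScriptSeq V2 kit, per the labels' protocols. The deposited tables hold FPKM per gene symbol. TopHat, Cufflinks, Cuffdiff and the mouse build mm9 are named in the submitters' processing notes; the sources used here do not give their versions, the annotation or the handling of reads with several matches. Per the file headers, the E18.5 table holds lower and upper bounds for each FPKM and the PND21 table a status word for each gene. The level of the bounds is not stated, and 269 of the genes had an E18.5 FPKM outside its own bounds. The tables were made separately (22029 and 22028 rows). They share 21982 symbols, of which 21290 were left after symbols starting Mir, Snor, Rnu or Scarna, and 25 symbols of the PND21 table turned into dates did not join.

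Groups came from the genotype and age labels. PND21 FPKM were multiplied by 1 factor per library. Genes reaching 1 FPKM in 1 of the libraries were compared on log2(FPKM + 1), receptors at 0.5 FPKM or more on log2(FPKM + 0.1), and genes at least 2-fold apart were counted. With 1 library per genotype no test was run. Depth is not given. In the PND21 heterozygote 81.5% of 248 low receptor values were whole multiples, within 0.05, of a fragment's value, which puts 0.5 FPKM at about 7.54 fragments for a typical receptor. In the E18.5 heterozygote 14.8% of 595 such values were whole, so its depth could not be read. Intervals for counting error are therefore not given. The share was 17.9%, 18.1% and 20% in the other E18.5 libraries and 85.4% in the PND21 double knockout, so it differed by table. The part of this difference in the counts of receptors detected at each age was not tested.

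The members and the 31 lists were chosen with earlier results of these data known. Named genes are the 15 highest and 15 lowest ratios among genes other than receptors at 5 FPKM or more in either heterozygous library. Rik, Gm, LOC and other clone names were left out of that ranking. Also named are, in each list, the extremes, the 4 most abundant and the first 4 written, and the targeted genes, Xist and Ddx3y. Named receptors are the 8 most abundant per library and the 6 highest and 6 lowest ratios at 2 FPKM or more. Plunc, Hmgb1, Hdac1, Cdk1 and Umodl1 were named after their values were seen. Receptor clusters were split at gaps of 500 kb. Near copies came from each gene's longest GENCODE M21 coding sequence (94.1% of genes matched), searched against all M21 transcripts with blastn 2.17.0. Promoters came from RefSeq, GRCm38.p6. Gene coordinates are on mm9, from the deposited tables. Scripts used Python 3.11.15, pandas 2.3.3, numpy 2.4.6 and matplotlib 3.10.9. The rescaling was tested on data simulated from the E18.5 values, with few genes changed and equal numbers raised and lowered. That checks the computation and not the choice of scale, on which the counts depend. Alternatives changed the scale, the pseudocount, the minimum, the library of each age and the genes with near copies.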

Additional observations from a re-analysis of the deposited data

How the results depend on the processing

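With 1 library per genotype, alternatives show how far the values move and not how likely they are by chance. No paired analysis was possible because each group has 1 library and no replicate numbers. Leaving out genes with near copies, genes with failed status words and each library in turn were alternatives chosen after seeing the data. For the 13 lists with a median of 1 or more either way, all 169 alternatives computed had the same sign and 156 stayed past 2-fold. The order of genes within each library gave the sign of the median for 30 of 31 lists, the exception being ribosomal proteins. The cause of each shift below was not tested unless the setting itself names it.

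Counts of genes moved by over 1.5-fold in 4 settings each. At 4-fold 442 genes were higher and 550 lower. With equal sums 823 were higher and 3987 lower. With a pseudocount of 5 the counts were 891 and 959. Against the upper bound of the E18.5 interval 814 genes were higher, and against its lower bound 749 were lower.

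Receptors detected at E18.5 numbered 154 with the G9a knockout on its own scale, 166 with the G9a knockout GLP heterozygote and 89 with the G9a/GLP double knockout in place of the G9a heterozygote. They numbered 856 with detection at 0.1 FPKM and 191 at 1 FPKM. The ratio of receptor sums was 7.98 with the G9a knockout, 8.92 with the G9a knockout GLP heterozygote and 0.723 after division by the transduction list.

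With the G9a knockout in place of the G9a heterozygote, list medians were 3.37 for transduction, -5.55 for skin and -3.39 for enamel. With the G9a knockout GLP heterozygote they were 3.83 for transduction, 2.66 for sustentacular cells, 2.39 for secretions, 1.89 for microvillar cells, -2.89 for imprinted genes and -2.03 for enamel. With the G9a/GLP double knockout they were 2.71 for sustentacular cells, 2.62 for secretions, -5.57 for skin and -1.97 for enamel. With the Suv420h double knockout at PND21 they were -2.18 for collagens, -3.56 for enamel, -3.25 for imprinted genes and -3.96 for muscle. A minimum of 5 FPKM gave 2.35 for secretions, -3.13 for imprinted genes and 2.78 for neutrophil genes. A pseudocount of 0.1 gave -7.43 for enamel, -3.25 for imprinted genes, 2.06 for neutrophil genes and -7.60 for skin. A pseudocount of 5 gave -2.63 for enamel, -0.71 for fetal growth, 0.70 for neutrophil genes, -1.56 for muscle and -2.74 for skin.

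Ratios of single genes changed sign with another library. Hba-a1, Rps12 and Olfr635 among them have near copies and are uncertain. With the G9a knockout these were Avil at 0.45, Fabp7 at -0.13, Hba-a1 at -0.011, Xist at -0.14 and Olfr635 at 1.89. With the G9a knockout GLP heterozygote they were Avil at 0.50, Fos at 0.093, Neurod2 at 0.26, Neurod6 at 0.18, Rps12 at -1.09, Tbr1 at 0.37, Olfr481 at 0.16 and Olfr635 at 1.87. With the G9a/GLP double knockout they were Xist at -0.74, Olfr481 at 0.34, Olfr635 at 1.87 and Olfr642 at 1.90. With the Suv420h double knockout they were Myh1 at -0.36 and Olfr642 at 0.55.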

Other observations

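Genes listed near 0 at one age and abundant at the other were counted over all 6 libraries. At 20 FPKM or more in both PND21 libraries and under 1 FPKM in all 4 E18.5 libraries there were 30 genes, of which 16 have a near copy. In the mirror direction there were 34 genes, of which 5 have a near copy. Pip, a secreted protein of exocrine glands, was at 1.28 FPKM in the G9a heterozygote, listed at 0 in the other 3 E18.5 libraries, and at 769 and 1328 FPKM at PND21. Abpa, an androgen-binding secretoglobin, was at 6.22 FPKM in the G9a heterozygote, listed at 0 in the other 3, and at 946 and 1705 FPKM at PND21. Odam, listed with enamel genes, was the 1 member of that list at least 2-fold higher, at 31.9, 7.51, 4.18 and 1.61 FPKM at E18.5 and 103 and 73.5 FPKM at PND21.

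The G9a heterozygote was the highest E18.5 library for several of the gland and tooth genes named in the report. Lcn11 was at 71.9 FPKM there and at 0.22 FPKM in the G9a/GLP double knockout, and Amelx was at 737 FPKM there and at 3.45 FPKM in the double knockout. Odam, Pip and Abpa had the same highest library. These values were not tested, and the ages compared in the report rest on that library.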
